A study of Homo sapiens with 6 samples.

Results

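The integrin and laminin genes were examined in 6 clonal HEK293 lines. They were taken by symbol: each row of the deposited abundance table named as an integrin alpha or beta subunit or as a laminin alpha, beta or gamma chain was taken, which gave 38 of the 58395 genes counted. They comprise 18 integrin alpha, 8 integrin beta, 5 laminin alpha, 4 laminin beta and 3 laminin gamma genes. HEK293 is an established human line of embryonic kidney origin. Control lines (GST lines 2, 8 and 9) overexpressed GST-3F, a tagged glutathione S-transferase, and the other lines (NOCT lines 4, 11 and 12) overexpressed NOCT delta(2-15)-3F, a tagged nocturnin without residues 2 to 15. Nocturnin belongs to the CCR4 family and acts on NADP and NADPH. All lines were cultured alike for 3 days. Each library is a different clone, so differences between clones cannot be told apart from the effect of the construct within a line, and p-values compare these clones. The promoter that drives the constructs is not given in the sources used here.

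Laminins are the scaffold proteins of basement membranes. A laminin is a trimer of an alpha, a beta and a gamma chain, and its alpha chain sets which receptors bind it. Integrins are transmembrane receptors made of an alpha and a beta subunit, and the pairing sets the ligand: laminins are bound chiefly by ITGA3, ITGA6 and ITGA7 with ITGB1, and by ITGA6 with ITGB4. In kidney, laminins and their receptors line the tubules and the glomerular filter.

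The libraries had 19729745 to 24422406 gene counts, of which the 38 genes took 0.133% to 0.152% in GST lines and 0.166% to 0.189% in NOCT lines. Construct reads followed the labels: that of GST had 46 to 88 counts in GST lines and at most 1 in NOCT lines. The NOCT construct had 46 to 82 counts in NOCT lines and 3 to 7 in GST lines. Of 7 HEK293 markers, 6 had a mean of at least 1 TPM (abundance of a transcript relative to its length and the library's depth), with a summed level of 558.7 to 807 TPM in GST lines and 690.3 to 1242 TPM in NOCT lines, most of it VIM. For 3 of these 6 markers the groups did not overlap, beside 20.0% of all genes tested (10.5% higher and 9.54% lower in NOCT lines). PAX2, a transcription factor of kidney development, had 2.45, 1.80 and 2.10 TPM in GST lines 2, 8 and 9, and 0.370, 0.618 and 0.546 TPM in NOCT lines 4, 11 and 12, a log2 fold change of -2.14 (SE 0.30, adjusted p 0.0567 in edgeR). The keratins KRT8 and KRT18 were higher in all NOCT lines than in any GST line, at log2 fold changes of 1.11 (adjusted p 0.159 in edgeR) and 0.63 (adjusted p 0.224 in edgeR). Of the markers of other cell types, CD3E and COL1A2 were at 0 in each line, and PTPRC, CD4, DCN, THY1, PECAM1 and CDH5 were at most 0.110 TPM. Higher levels were reached by COL1A1 (2.14 to 7.28 TPM), KDR (up to 1.66 TPM and lower in all NOCT lines), LUM (up to 1.496 TPM), CD14 (up to 0.987 TPM), PDGFRA (up to 0.888 TPM) and VWF (up to 0.421 TPM). The leukocyte list summed to 4.46 to 59.1 TPM in GST lines and 49.1 to 95.5 TPM in NOCT lines, nearly all of it LCP1. The fibroblast list summed to 3.80 to 4.59 and 2.61 to 9.31 TPM, and the endothelial list to 0.654 to 1.76 and 0.0216 to 0.978 TPM; in each line COL1A1 was the largest term of the former and KDR of the latter. The part of these markers in the results below was not tested.

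Of the 38 genes, 26 had a mean of at least 1 TPM over the 6 lines, 15 of the 26 integrins and 11 of the 12 laminins. ITGB1, the beta subunit shared by most integrins outside blood, had the highest mean, 122 TPM (93.5 to 166), followed by LAMC1, the common laminin gamma chain, at 116 TPM (104 to 139.7); their ranges over the lines overlap. ITGA6, a laminin receptor subunit, was at 49.8 TPM (42.8 to 65.9), and ITGAV, which binds vitronectin, fibronectin and latent TGF-beta, at 48.8 TPM (34.8 to 77.5), again with overlapping ranges. LAMB1 followed at 38.0 TPM (30.02 to 51.6), overlapping with the genes on either side of it in this order. LAMA3 at 27.9 TPM (21.2 to 37.4), LAMA4 at 27.7 TPM (13.0 to 45.7) and LAMB2 at 23.8 TPM (21.2 to 27.5) overlap with each other. ITGA5, the fibronectin receptor subunit, had a mean of 15.8 TPM, and ITGA2, a collagen receptor subunit, 10.5 TPM.

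**Figure D1:**
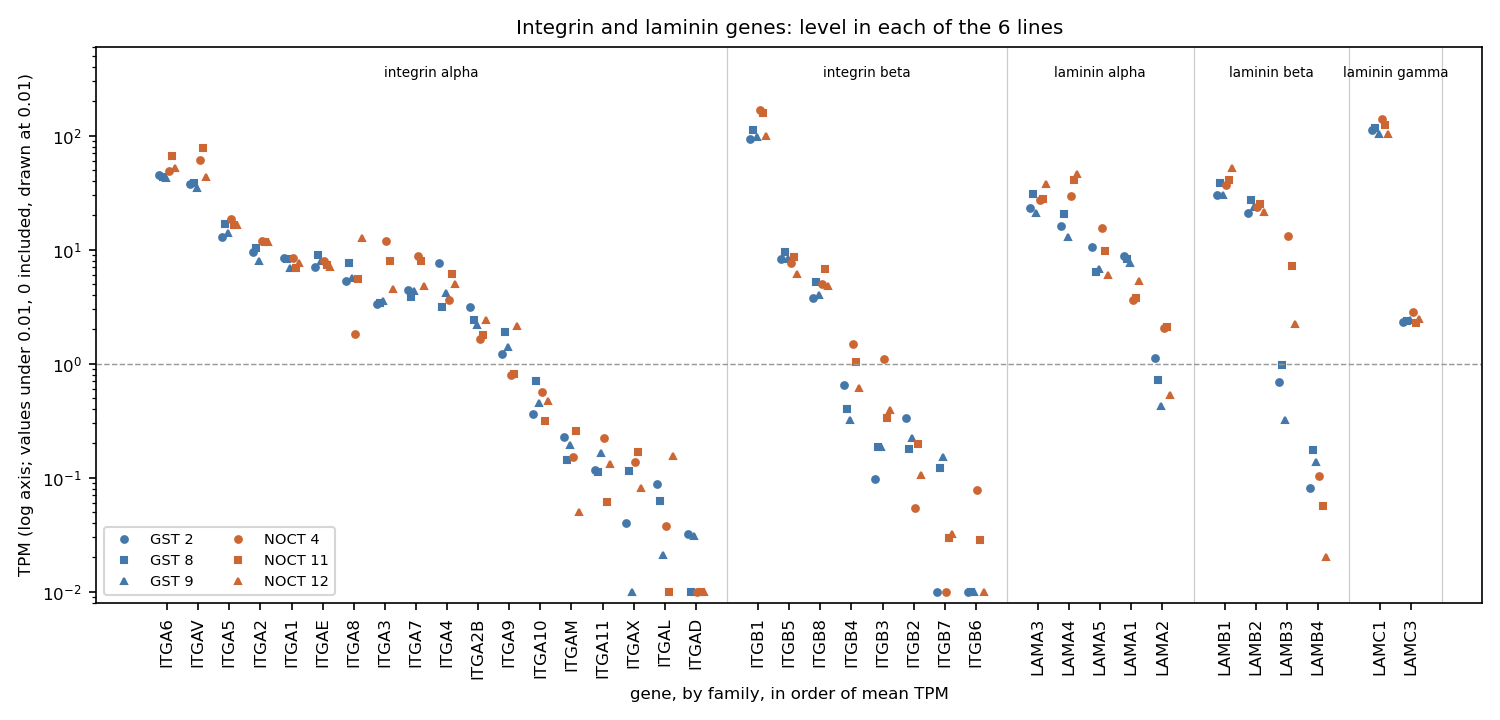
Level of 37 of the 38 genes in each line (TPM, logarithmic axis; a point per line, GST lines blue and NOCT lines orange; the dashed line marks 1 TPM). ITGB1 and LAMC1 stand highest, and the leukocyte integrin genes ITGAL, ITGAM, ITGAX, ITGAD, ITGB2 and ITGB7 lie under 1 TPM.

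The other 16 genes at 1 TPM or more had means from 1.16 TPM (LAMA2) to 9.15 TPM (LAMA5). Their spread differed widely: the highest line exceeded the lowest by 1.24-fold for ITGA1, but by 40.9-fold for LAMB3. Summed over the 12 alpha subunits that can pair with ITGB1, the level was 137, 138 and 126 TPM in GST lines 2, 8 and 9, and 177, 207 and 161 TPM in NOCT lines 4, 11 and 12. ITGB1 itself was at 93.5, 113 and 97.9 TPM in GST lines 2, 8 and 9, and 166, 159 and 100.2 TPM in NOCT lines 4, 11 and 12. The alpha sum thus exceeded ITGB1 in each of the 6 lines. That sum includes ITGAV (34.8 to 77.5 TPM), which also pairs with ITGB3, ITGB5 and ITGB8. The excess in all 6 lines rests on counting ITGAV in full. The alpha sum was higher in all 3 NOCT lines than in any GST line, while ITGB1 in NOCT line 12 lay among the GST lines.

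The stretch from 250 to 51 bases before the RefSeq start is shown for 4 genes: LAMB3, which had the largest fold change between the groups, ITGAV, whose groups did not overlap, and LAMC1 and ITGB1, the most abundant laminin and integrin. The sequences are from RefSeq (GRCh38.p14), 5′ to 3′ on the gene's strand, and 26 of the 38 genes had an entry. For each of the 4, the first RefSeq stretch free of annotated exons was taken. That of ITGB1 lies inside the annotated span of the gene. Capitals mark the GC box GGGCGG on either strand. They lie at chr1:209652476-209652675 (minus strand), chr1:183023170-183023369 (plus), chr10:32958281-32958480 (minus) and chr2:186589806-186590005 (plus).
LAMB3: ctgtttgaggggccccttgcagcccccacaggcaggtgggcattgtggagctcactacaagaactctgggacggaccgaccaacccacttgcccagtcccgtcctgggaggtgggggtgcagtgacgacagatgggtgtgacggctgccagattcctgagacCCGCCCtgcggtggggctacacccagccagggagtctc
LAMC1: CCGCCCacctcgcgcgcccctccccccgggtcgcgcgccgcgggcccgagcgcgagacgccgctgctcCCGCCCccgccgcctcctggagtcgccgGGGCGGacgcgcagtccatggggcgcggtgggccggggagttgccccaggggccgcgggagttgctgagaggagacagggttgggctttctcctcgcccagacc
ITGB1: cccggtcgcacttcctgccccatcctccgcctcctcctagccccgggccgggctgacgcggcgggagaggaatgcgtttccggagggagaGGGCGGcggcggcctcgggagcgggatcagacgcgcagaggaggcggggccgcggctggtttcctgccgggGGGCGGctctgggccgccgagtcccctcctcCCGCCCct
ITGAV: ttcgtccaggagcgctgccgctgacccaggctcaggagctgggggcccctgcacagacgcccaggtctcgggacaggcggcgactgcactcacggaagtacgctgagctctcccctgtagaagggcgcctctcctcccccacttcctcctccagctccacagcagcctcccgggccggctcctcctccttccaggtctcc

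The GC box occurred 3 times upstream of LAMC1, 3 times upstream of ITGB1, 1 time upstream of LAMB3 and not upstream of ITGAV. How matches relate to RNA level was not tested. At least 1 match is found in 35.0% of all 35116 RefSeq stretches of this length, which were not filtered for exons. That share is no baseline for the number of matches. The AP-1 motif TGANTCA and the letters TATAAA, searched on both strands and found in 5.27% and 7.63% of all stretches, are in none of the 4. G and C made up 79.5% of the bases for LAMC1, 77.0% for ITGB1, 69.0% for ITGAV and 65.0% for LAMB3. A match describes letters in the reference and not a bound site.

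The comparison of NOCT with GST lines asks how RNA in cells with this form of nocturnin differs from that in control cells. Of the 38 genes, 30 had enough counts to be tested, and edgeR's quasi-likelihood test put 0 of them past an adjusted p of 0.05, beside 0.0579% of all genes tested (0.0232% higher and 0.0348% lower). The smallest adjusted p of a member was 0.104. An unadjusted p under 0.05 was found for 10 of the 30, or 33.3%, where the share of all genes was 13.9%. Of these 10, 9 were higher in NOCT lines and 1 lower, beside 7.38% and 6.52% of all genes. Groups were fully apart for 10 of the 30 (7 higher and 3 lower), beside 20.0% of all genes (10.5% and 9.54%). This holds for CPM, counts relative to library size; in TPM the groups of ITGAE and ITGB5 overlapped and those of ITGA6 did not. The log2 fold change was above 0 in 20 of the 30, or 66.7%, beside 50.7% of all genes, and its median was 0.24, beside 0.005 for all genes.

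The number called depended on the tool. DESeq2, which gave no adjusted p for ITGB3 and ITGA11, called 6 of the other 28 tested genes on the same counts, 5 higher (LAMA4, LAMB3, ITGA3 and ITGAV among them) and LAMA1 lower, where it called 3.41% of all genes with an adjusted p (1.82% and 1.59%). The same 6 genes were called by edgeR without its filter on low counts, beside 2.57% of all genes. The limma voom fit with sample weights called these 6 and ITGA7, ITGB1 and ITGB4, beside 5.09% of all genes.

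**Figure D2:**
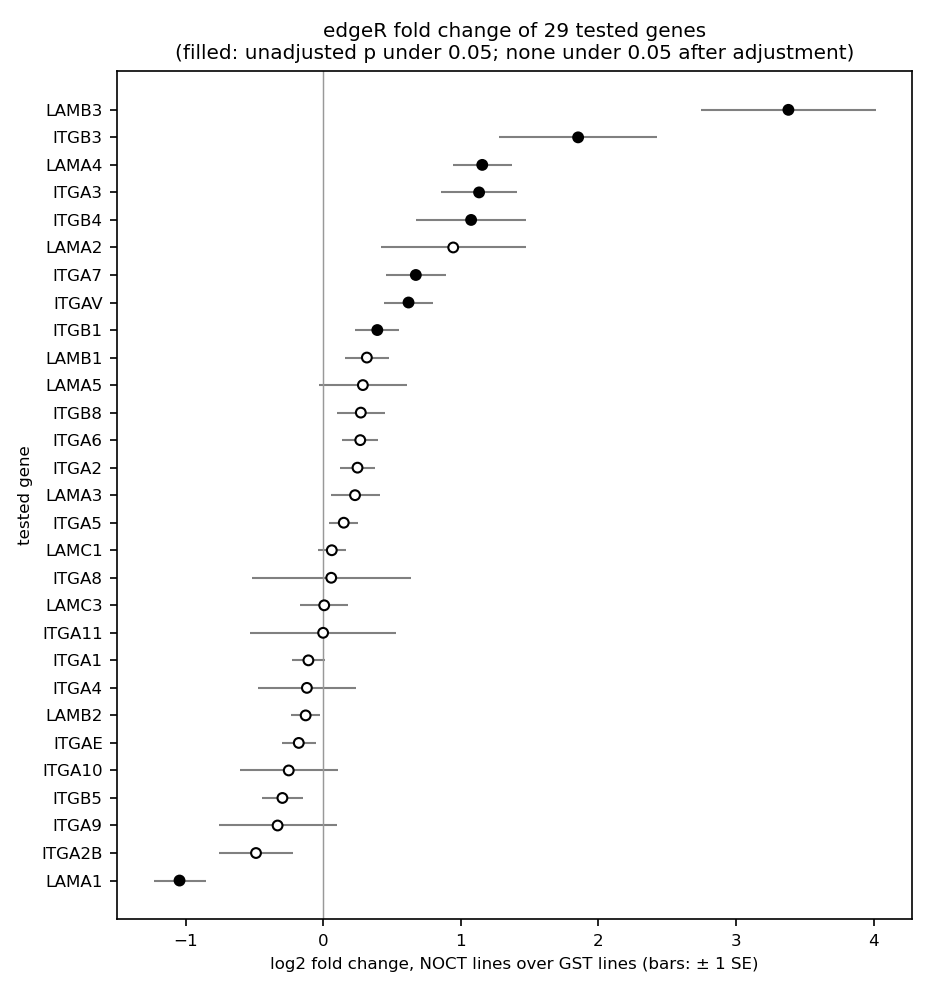
Fold change of 29 of the 30 tested genes on the log2 scale (edgeR, NOCT over GST lines; bars are 1 standard error to each side; filled points have an unadjusted p under 0.05). LAMB3 at 3.38 lies farthest to the right with a wide bar, and LAMA1 at -1.05 is the lowest.

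Among the laminin alpha chains, LAMA4 was higher and LAMA1 lower in all NOCT lines than in any GST line. LAMA4 (ENSG00000112769; chromosome 6, 112108760 to 112254939, minus strand), the alpha chain of laminins in vessel walls and mesenchyme, had 69.3, 82.5 and 54.2 CPM in GST lines 2, 8 and 9, and 111, 161 and 187 CPM in NOCT lines 4, 11 and 12. NOCT lines 11 and 12 stood well above the GST lines, and line 4 less far. The group means were 68.7 ± 14.2 and 153 ± 38.6 CPM (SD, n = 3 each). The log2 fold change was 1.16 (SE 0.21, adjusted p 0.110 in edgeR).

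LAMA1 (ENSG00000101680; chromosome 18, 6941744 to 7117814, minus strand), the alpha chain of the earliest embryonic basement membranes, had 52.1, 45.2 and 43.6 CPM in GST lines 2, 8 and 9, and 18.4, 20.0 and 29.9 CPM in NOCT lines 4, 11 and 12. All 3 NOCT lines lay under the lowest GST line, with line 12 nearest to it. On the log2 scale the difference was -1.05 (SE 0.19, adjusted p 0.104 in edgeR). Its neighbours on the chromosome were low in the same lines, apart from line 12: relative to the mean of the 6 lines, the median log2 level of 82 neighbouring genes was -0.73 in NOCT line 4 and -0.22 in line 11, but 0.18 in line 12 and 0.16 to 0.32 in GST lines. With the level of the neighbours removed, LAMA1 was at -0.56 (edgeR adjusted p 0.104).

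The other alpha chains had overlapping groups. LAMA3, the alpha chain of epithelial anchoring laminin, had 117, 142 and 103 CPM in GST lines 2, 8 and 9, and 119.8, 126 and 179 CPM in NOCT lines 4, 11 and 12, a log2 fold change of 0.23 (SE 0.18, adjusted p 0.603 in edgeR). It also lies on chromosome 18, and with its neighbours' level removed the value was 0.44 (edgeR adjusted p 0.178). LAMA5, the alpha chain of mature epithelial and glomerular basement membranes, had 55.8, 31.6 and 34.8 CPM in GST lines 2, 8 and 9, and 71.8, 46.8 and 30.2 CPM in NOCT lines 4, 11 and 12. It varied more within groups than between them, with group means of 40.7 ± 13.1 and 49.6 ± 20.9 CPM (SD, n = 3 each). The median log2 level of its 92 neighbours on chromosome 20 also varied. Relative to the mean of the 6 lines it was 0.24, -0.26 and 0.007 in GST lines 2, 8 and 9, and 0.18, 0.057 and -0.30 in NOCT lines 4, 11 and 12. LAMA2, the alpha chain of muscle and nerve laminin, had 4.33, 2.56 and 1.57 CPM in GST lines 2, 8 and 9, and 6.88, 7.36 and 1.96 CPM in NOCT lines 4, 11 and 12, with NOCT line 12 among the GST lines.

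The make-up of the alpha chains is given as shares, which carry no test. LAMA4 took 27.0%, 31.1% and 26.5% in GST lines 2, 8 and 9, and 37.9%, 48.8% and 48.1% in NOCT lines 4, 11 and 12, of the summed TPM of the 5 alpha chains. LAMA1 took 14.8%, 12.4% and 15.6% in GST lines 2, 8 and 9, and 4.59%, 4.42% and 5.61% in NOCT lines 4, 11 and 12. The shares of LAMA4 and of LAMA1 did not overlap between the groups. Nor did those of LAMB3, LAMB2 and LAMC1 within their own classes, though the CPM of LAMB2 and LAMC1 overlapped. A higher share of a chain lowers the shares of the others in its class.

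**Figure D3:**
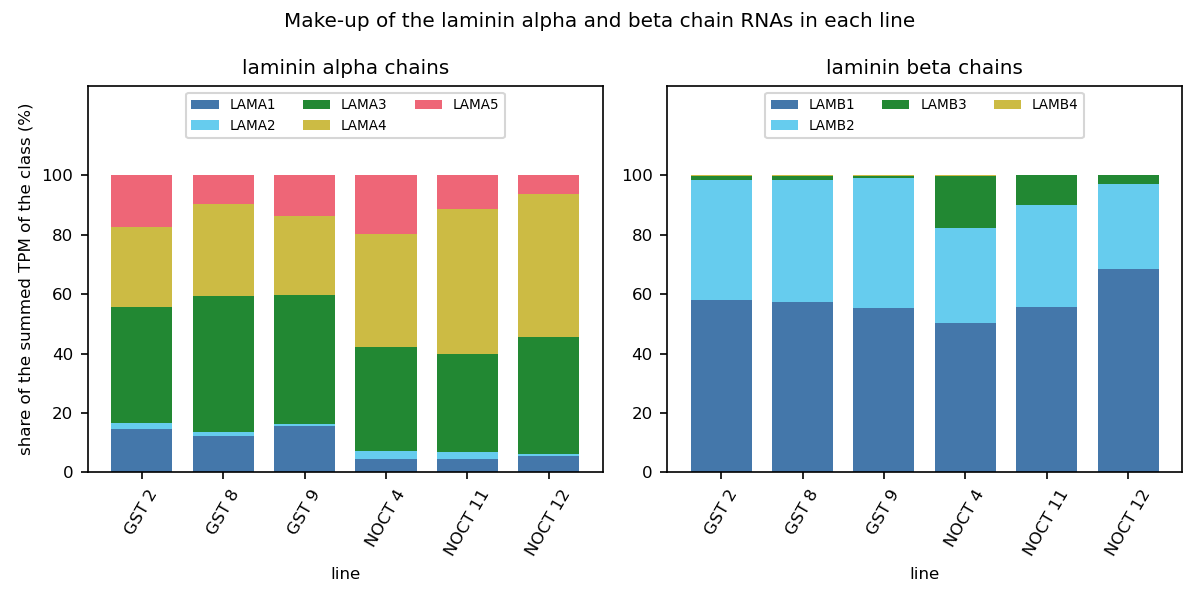
Share of each alpha and beta chain in the summed TPM of its laminin class, per line (stacked bars, percent). LAMA4 takes a larger and LAMA1 a smaller share of the alpha chains in the NOCT lines, and LAMB3 takes 17.7% of the beta chains in NOCT line 4.

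LAMB3, a beta chain that joins LAMA3 in the laminin beneath stratified epithelia, had the largest fold change of the 30 and was graded over the NOCT lines. LAMB3 (ENSG00000196878; chromosome 1, 209614870 to 209652466, minus strand) had 23, 34 and 11 counts in GST lines 2, 8 and 9, and 505, 253 and 73 in NOCT lines 4, 11 and 12. As levels these were 1.22, 1.58 and 0.541 CPM in GST lines 2, 8 and 9, and 19.9, 11.4 and 3.67 CPM in NOCT lines 4, 11 and 12. Each NOCT line was above all GST lines, with line 12 much nearer to them than line 4, and the log2 fold change was 3.38 (SE 0.64, adjusted p 0.113 in edgeR). Without NOCT line 4 it was 2.75 (edgeR adjusted p 0.246).

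It stayed a minor chain. LAMB3 took 1.33%, 1.46% and 0.590% in GST lines 2, 8 and 9, and 17.7%, 9.86% and 2.94% in NOCT lines 4, 11 and 12, of the beta chains' summed TPM. LAMC1 (ENSG00000135862; chromosome 1, 183023460 to 183145592, plus strand) had 349, 335 and 313 CPM in GST lines 2, 8 and 9, and 379.7, 353 and 308 CPM in NOCT lines 4, 11 and 12. Its groups overlapped, at a log2 fold change of 0.061 (SE 0.10, adjusted p 0.825 in edgeR). LAMB1, the beta chain of most embryonic laminins, had 91.6, 107 and 88.0 CPM in GST lines 2, 8 and 9, and 97.9, 111 and 148 CPM in NOCT lines 4, 11 and 12, a log2 fold change of 0.32 (SE 0.16, adjusted p 0.423 in edgeR). LAMB2, the beta chain of the mature glomerular filter, had 54.2, 64.9 and 59.0 CPM in GST lines 2, 8 and 9, and 52.8, 58.1 and 51.9 CPM in NOCT lines 4, 11 and 12, and LAMC3 had 6.495, 6.13 and 6.59 CPM in GST lines 2, 8 and 9, and 6.92, 5.79 and 6.58 CPM in NOCT lines 4, 11 and 12. The groups of LAMB1, LAMB2 and LAMC3 overlapped, and the last 2 had log2 fold changes of -0.13 and 0.006. Relative to the mean of the 6 lines, the median log2 level of 100 neighbours of LAMC3 on chromosome 9 was -0.36 in NOCT line 12. In the other lines it was -0.066 to 0.19. With the level of the neighbours removed, LAMC3 was at 0.29 (edgeR adjusted p 0.541).

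Of the alpha subunits best known as laminin receptors, ITGA3 and ITGA7 did not overlap between the groups in CPM and ITGA6 did. ITGA3 (ENSG00000005884; chromosome 17, 50055968 to 50090481, plus strand) had 12.2, 11.6 and 12.6 CPM in GST lines 2, 8 and 9, and 37.4, 26.3 and 15.8 CPM in NOCT lines 4, 11 and 12. The GST lines were tightly grouped and the NOCT lines spread out above them, at a log2 fold change of 1.13 (SE 0.28, adjusted p 0.181 in edgeR). ITGA7 (ENSG00000135424; chromosome 12, 55684568 to 55716043, minus strand), the laminin receptor subunit of muscle, had 10.5, 8.45 and 9.93 CPM in GST lines 2, 8 and 9, and 18.1, 17.1 and 10.8 CPM in NOCT lines 4, 11 and 12. NOCT line 12 was only just above GST line 2, and the log2 fold change was 0.67 (SE 0.22, adjusted p 0.244 in edgeR). ITGA6 had the highest mean TPM of the alpha subunits over the 6 lines, though ITGAV was higher than ITGA6 in CPM in each line. ITGA6 had 111, 96.6 and 101 CPM in GST lines 2, 8 and 9, and 104, 145 and 121 CPM in NOCT lines 4, 11 and 12. Its log2 fold change was 0.27 (SE 0.13, adjusted p 0.409 in edgeR).

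Their beta partner ITGB1 (ENSG00000150093; chromosome 10, 32900319 to 33005792, minus strand) had 209.5, 233 and 212 CPM in GST lines 2, 8 and 9, and 323, 323 and 213 CPM in NOCT lines 4, 11 and 12. NOCT lines 4 and 11 were nearly equal and above the GST lines, and line 12 lay within the GST range, so that the log2 fold change was 0.39 (SE 0.16, adjusted p 0.332 in edgeR). ITGB4, which pairs with ITGA6 in the hemidesmosomes of epithelia, was low throughout, with 31, 20 and 16 counts in GST lines 2, 8 and 9, and 82, 52 and 29 in NOCT lines 4, 11 and 12. NOCT line 12 overlapped the GST lines in CPM, and the log2 fold change was 1.07 (SE 0.40, adjusted p 0.290 in edgeR).

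**Figure D4:**
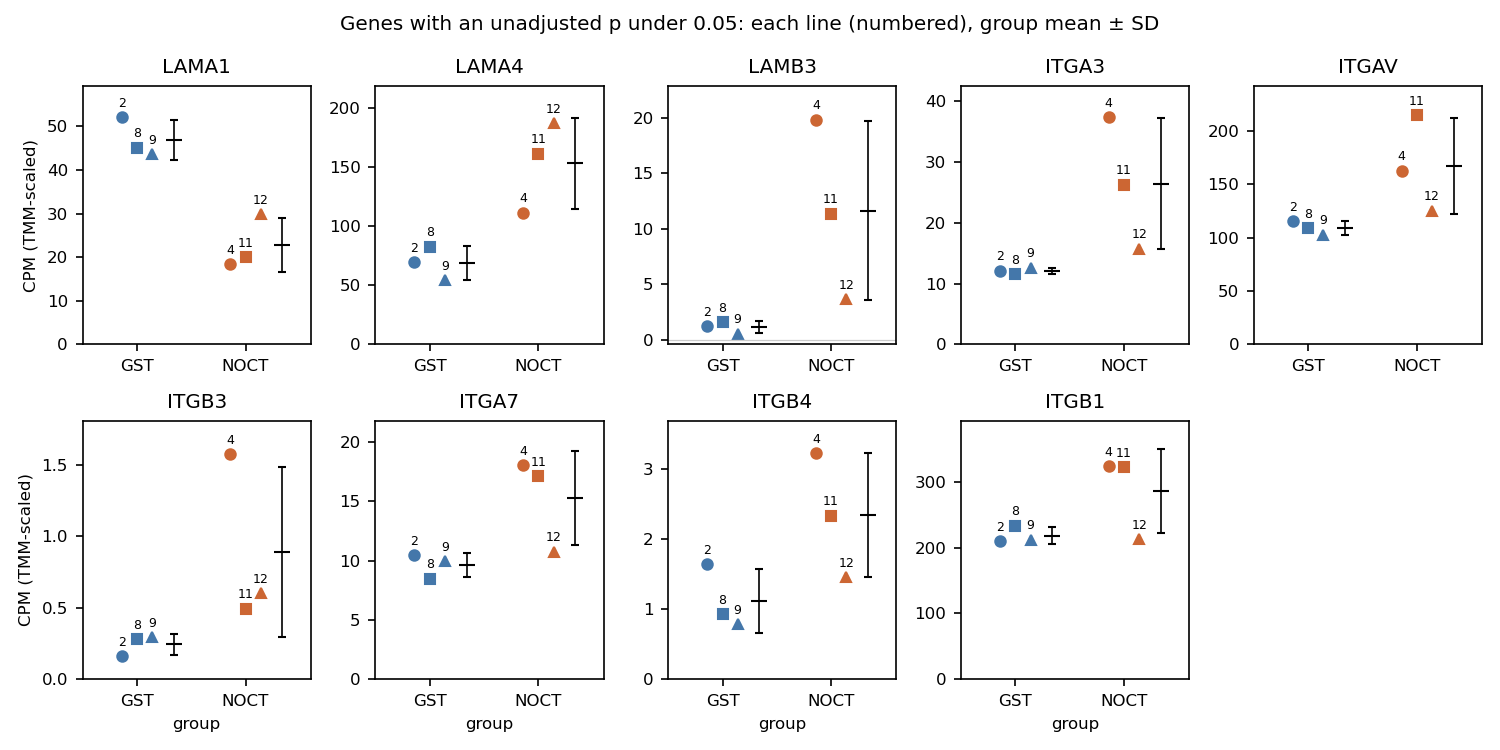
CPM in each line (numbered points; blue GST, orange NOCT; bars give the group mean and SD, n = 3) for 9 of the 10 genes with an unadjusted p under 0.05. Over the 10 genes, NOCT line 12 is the NOCT line nearest to the GST mean in 8, and line 4 is the farthest in 8.

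ITGAV and the beta subunits that pair with it differed in sign, and edgeR with its filter on low counts called none of them with all 6 lines. ITGAV (ENSG00000138448; chromosome 2, 186590065 to 186680901, plus strand) had 115, 109 and 103 CPM in GST lines 2, 8 and 9, and 163, 215 and 125 CPM in NOCT lines 4, 11 and 12. All NOCT lines were above the GST lines, with line 11 highest, at a log2 fold change of 0.62 (SE 0.18, adjusted p 0.212 in edgeR). Its adjusted p was 0.0455 in DESeq2, 0.00440 in edgeR without the filter and 0.0272 in limma voom with sample weights, which also called ITGB1 (adjusted p 0.0493). ITGB5, a vitronectin receptor subunit, had 19.8, 21.2 and 19.3 CPM in GST lines 2, 8 and 9, and 16.0, 18.9 and 14.01 CPM in NOCT lines 4, 11 and 12, with the NOCT lines below the GST lines in CPM, at a log2 fold change of -0.30 (SE 0.15, adjusted p 0.414 in edgeR). ITGB8, which with ITGAV frees TGF-beta from its latent form, had 21.1, 27.4 and 21.7 CPM in GST lines 2, 8 and 9, and 24.4, 34.9 and 25.6 CPM in NOCT lines 4, 11 and 12, with overlapping groups and a log2 fold change of 0.27 (SE 0.18, adjusted p 0.529 in edgeR). ITGB3, the subunit of platelets and osteoclasts, had 3, 6 and 6 counts in GST lines 2, 8 and 9, and 40, 11 and 12 in NOCT lines 4, 11 and 12, a log2 fold change of 1.85 (SE 0.57, adjusted p 0.230 in edgeR). It was 1.13 without NOCT line 4 and 0.45 on the log2(TPM + 1) scale. The value rests on few reads, and 51.6% of the exonic bases of ITGB3 are shared with AC068234.1 on the same strand, so its counts are uncertain.

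Groups overlapped for the collagen receptor subunit ITGA1 and the fibronectin receptor subunit ITGA5, but not for the collagen receptor subunit ITGA2. ITGA2 had 28.4, 28.2 and 22.5 CPM in GST lines 2, 8 and 9, and 30.6, 30.9 and 32.4 CPM in NOCT lines 4, 11 and 12. These groups did not overlap, but the gap between them was smaller than the spread of the GST lines, at a log2 fold change of 0.25 (SE 0.13, adjusted p 0.422 in edgeR). ITGA1 had 58.1, 52.4 and 45.8 CPM in GST lines 2, 8 and 9, and 50.8, 43.5 and 50.6 CPM in NOCT lines 4, 11 and 12, and ITGA5 had 36.5, 43.9 and 38.1 CPM in GST lines 2, 8 and 9, and 45.3, 42.1 and 43.8 CPM in NOCT lines 4, 11 and 12. ITGAE, known from lymphocytes within epithelia, had 17.6, 20.5 and 18.9 CPM in GST lines 2, 8 and 9, and 17.2, 16.5 and 16.7 CPM in NOCT lines 4, 11 and 12. In CPM it was lower in all NOCT lines by a small margin and in TPM the groups overlapped, at a log2 fold change of -0.18 (SE 0.12, adjusted p 0.557 in edgeR).

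Of the other tested alpha subunits, ITGA8, ITGA9, ITGA4, ITGA10 and ITGA11 varied more within a group than between the groups. ITGA8, which acts in kidney development, had 14.9, 19.6 and 15.3 CPM in GST lines 2, 8 and 9, and 4.40, 13.9 and 33.8 CPM in NOCT lines 4, 11 and 12. The lowest and the highest of its 6 values were both in NOCT lines, and its log2 fold change of 0.057 had a standard error of 0.58. ITGA9, which binds tenascin, had 3.75, 5.39 and 4.18 CPM in GST lines 2, 8 and 9, and 2.12, 2.24 and 6.28 CPM in NOCT lines 4, 11 and 12, with NOCT line 12 highest. ITGA4, which binds VCAM1 and fibronectin, had 22.6, 8.59 and 11.9 CPM in GST lines 2, 8 and 9, and 9.20, 16.3 and 14.1 CPM in NOCT lines 4, 11 and 12, with the widest gap among the control clones. ITGA2B, the platelet subunit, had 6.44, 4.65 and 4.33 CPM in GST lines 2, 8 and 9, and 2.95, 3.32 and 4.72 CPM in NOCT lines 4, 11 and 12, overlapping groups with a log2 fold change of -0.49 (SE 0.27, adjusted p 0.456 in edgeR). ITGA10 and ITGA11, collagen receptor subunits of cartilage and fibroblasts, had 5 to 33 counts per library and log2 fold changes of -0.25 and -0.002.

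The 8 genes without enough counts to be tested had 0 to 16 counts per library. They were ITGAL, ITGAM, ITGAX and ITGAD with their shared partner ITGB2, which form leukocyte integrins, and ITGB6, ITGB7 and LAMB4. ITGB2 had the most, with 54 counts over the 6 libraries, and ITGAD the fewest, with 2. A library with 0 counts allows up to 3, for counting error only.

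Besides the filter on low counts, the edgeR call changed with NOCT line 12. With the filter kept and that line left out, 8 of the 30 genes passed (7 higher and 1 lower), beside 5.17% of all genes (2.94% and 2.23%). On the log2 scale LAMA1 was then at -1.29 (edgeR adjusted p 0.00232), LAMA4 at 0.99 (0.0286) and LAMB3 at 3.80 (0.00235). Among integrins, ITGA3 was at 1.40 (edgeR adjusted p 0.00480), ITGAV at 0.79 (0.0141), ITGA7 at 0.87 (0.0226) and ITGB1 at 0.57 (0.0141). No member passed when any of the other 5 lines was left out.

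Members on chromosome 2 lie among genes that were lower in NOCT line 4. The median of 100 neighbours there was -0.39 for ITGA4, -0.36 for ITGA6 and -0.39 for ITGAV on the log2 scale, and above 0 in the other 5 lines. With that level removed, the log2 fold change was 0.78 for ITGAV (edgeR adjusted p 0.167) and 0.42 for ITGA6 (0.109). For LAMB3 and ITGA3 it stayed near its value, at 3.33 and 1.14, and LAMA4 was at 1.09 (edgeR adjusted p 0.0560). With this offset 0 members and 0.214% of all genes were called.

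**Figure D5:**
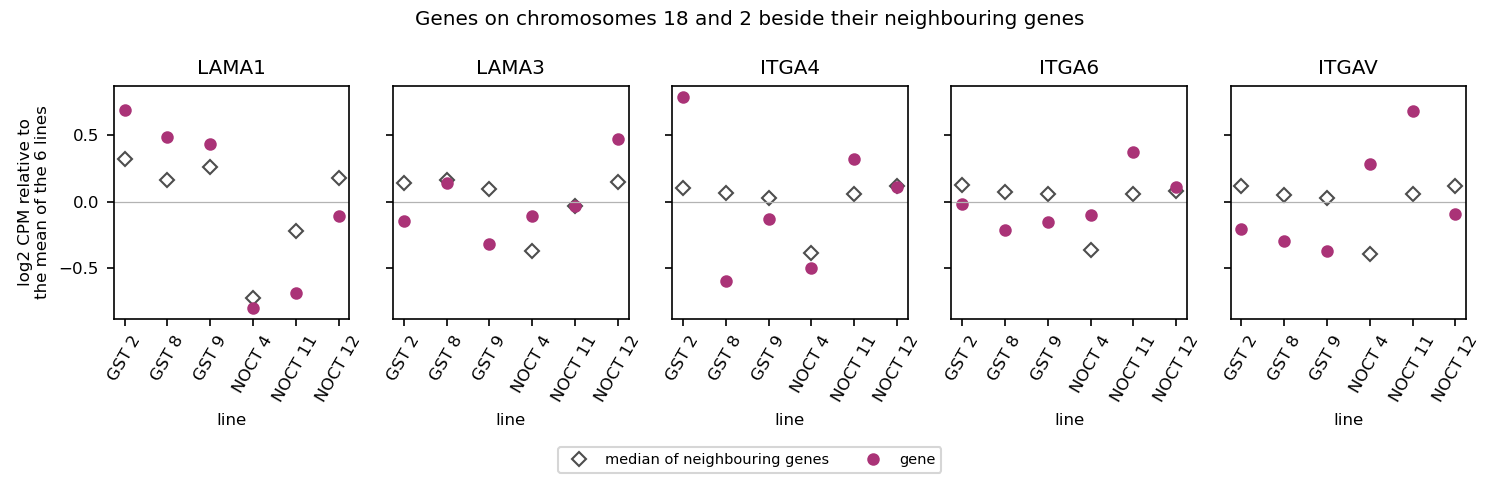
Level of 5 genes (filled circles) and the median of their neighbouring genes (open diamonds) in each line, as log2 CPM relative to the mean of the 6 lines. For LAMA1 both are low in NOCT lines 4 and 11, and for ITGAV the gene lies above its neighbours in NOCT lines 4 and 11.

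The authors' deposited table gives 5 of the 38 genes an adjusted p under 0.05 (4 higher and 1 lower), beside 2.87% of its genes with an adjusted p (1.49% and 1.38%). In the authors' deposited table these have shrunken log2 fold changes of 0.95 for LAMA4 (adjusted p 2.47e-05), -0.89 for LAMA1 (5.18e-05), 0.79 for LAMB3 (0.00156), 0.85 for ITGA3 (0.00324) and 0.53 for ITGAV (0.0461). It rests on the same 6 libraries.

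Of 30 tested integrin adaptors, which link the beta tails to actin, edgeR called 0, beside 0.0579% of all genes. Counts of calls in this and the other related lists are for edgeR with its low-count filter and all 6 lines only. An unadjusted p under 0.05 was found for 4 (3 higher and 1 lower), or 13.3%, close to the 13.9% of all genes (7.38% higher and 6.52% lower); the median log2 fold change was 0.12. FERMT1, a kindlin that activates integrins, had 1.85, 1.54 and 1.45 TPM in GST lines 2, 8 and 9, and 4.56, 3.38 and 3.37 TPM in NOCT lines 4, 11 and 12, so its groups did not overlap, at a log2 fold change of 1.13 (SE 0.22, adjusted p 0.120 in edgeR). The actin cross-linker ACTN1 was at 0.76, adjusted p 0.165 in edgeR, and the kindlin FERMT2 at 0.54, adjusted p 0.181 in edgeR. Without NOCT line 12 the edgeR adjusted p was 0.0306 for FERMT1, 0.0228 for ACTN1 and 0.0453 for FERMT2, where 5.17% of all genes were called. In the authors' deposited table it was 0.00165, 0.00722 and 0.0297, beside 2.87% of its genes called.

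Of 13 tested basement membrane partners, edgeR called 0 (all genes 0.0579%), and 4 had an unadjusted p under 0.05 (3 higher and 1 lower), or 30.8% beside 13.9% of all genes; the median was 0.22. COL4A4 (0.59, adjusted p 0.228 in edgeR) and COL4A3 (0.66, adjusted p 0.261 in edgeR) encode collagen chains of the glomerular basement membrane, and HSPG2 encodes perlecan (-0.57, adjusted p 0.249 in edgeR). Without NOCT line 12 the edgeR adjusted p was 0.0480 for COL4A4, 0.117 for COL4A3 and 0.0211 for HSPG2. In the authors' deposited table it was 0.0717, 0.0919 and 0.102. Of 13 tested integrin ligands other than laminins, edgeR called 0 (all genes 0.0579%), and 4 had an unadjusted p under 0.05, all higher, or 30.8% beside 7.38% of all genes in that direction; the median was 0.45. TGFB1, whose latent form ITGAV integrins bind, had 11.3, 6.76 and 8.14 TPM in GST lines 2, 8 and 9, and 60.4, 44.4 and 15.6 TPM in NOCT lines 4, 11 and 12, a log2 fold change of 2.08 (SE 0.44, adjusted p 0.133 in edgeR). FN1, fibronectin, had 67.8, 88.6 and 74.2 TPM in GST lines 2, 8 and 9, and 231, 313 and 52.4 TPM in NOCT lines 4, 11 and 12, so NOCT line 12 was below the GST lines while lines 4 and 11 were far above them (1.27, adjusted p 0.317 in edgeR). THBS1, thrombospondin, had 0.960, 0.295 and 0.581 TPM in GST lines 2, 8 and 9, and 7.34, 3.47 and 0.589 TPM in NOCT lines 4, 11 and 12. NOCT line 12 lay within the GST range, and the log2 fold change was 2.50 (SE 0.79, adjusted p 0.235 in edgeR). Without NOCT line 12 the edgeR adjusted p was 0.00173 for TGFB1, 0.00138 for FN1 and 0.0108 for THBS1. In the authors' deposited table it was 0.0130, 0.406 and 0.163.

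Of 20 tested genes for other laminin receptors and the dystroglycan complex, edgeR called 0 (all genes 0.0579%), and 5 had an unadjusted p under 0.05 (2 higher and 3 lower), or 25.0% beside 13.9% of all genes; the median was 0.045. POMT1 and POMT2, which start the sugar chains of dystroglycan that bind laminin, differed in sign (-0.37, adjusted p 0.204 in edgeR, and 0.35, adjusted p 0.318 in edgeR). Of 7 tested membrane partners of integrins, edgeR called 0 (all genes 0.0579%), and 3 had an unadjusted p under 0.05, all higher, or 42.9% beside 7.38% of all genes in that direction: the tetraspanins CD151 (0.41, adjusted p 0.266 in edgeR), CD63 (0.36, adjusted p 0.270 in edgeR) and CD9 (0.35, adjusted p 0.343 in edgeR). The median of that list was 0.35. Without NOCT line 12 the edgeR adjusted p was 0.223 for CD151, 0.0842 for CD63 and 0.0647 for CD9.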

How the data were processed

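Deposited count tables, one for each library, hold whole numbers of reads for every gene. The submitters' processing notes name FastQC 0.10.1, MultiQC 1.0, cutadapt 1.8.1, Trimmomatic 0.33, STAR 2.5.2b, HTSeq 0.6.1p1, DESeq2 1.16.1 and the build GRCh38. The 5 rows that name no gene held 42.9% to 47.1% of the reads and were left out. The authors' TPM table was used for levels between genes. The authors' DESeq2 table gives a mean normalised signal, a log2 fold change called shrunken in its name, a test score and p-values before and after adjustment. Its direction was read from the construct rows.

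The fit used edgeR 4.0.16 in R 4.3.3 on all genes (filterByExpr, TMM, quasi-likelihood test, Benjamini-Hochberg adjustment over 17261 genes), with standard errors from the F statistic and CPM scaled by TMM. The script was tested on simulated counts. Alternatives were DESeq2 1.42.0, limma 3.58.1 (voom with and without sample weights, log2(TPM + 1), log2(TPM + 0.1)), other scalings and filters, an offset from the median of up to 50 neighbours per side with at least 1 CPM, and leaving out each line. Coordinates are from GENCODE release 29 (GRCh38). Values per line are given for genes with a mean of at least 1 TPM or an unadjusted p under 0.05, and at most the 3 genes of smallest p are named per related list; some genes that these rules name are not reported here. Members and lists were chosen with earlier results of these data known.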

Additional observations from a re-analysis of the deposited data

How the results depend on the processing

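The number of members past an adjusted p of 0.05, 0 in edgeR, was 6 with DESeq2, 9 with limma voom and sample weights, 6 without a filter on low counts, and 0 to 8 when a line was left out (8 without NOCT line 12). Over all genes the count of 10 was 508 with DESeq2, 16 with voom, 878 with sample weights, 22 with spike-in totals as library sizes, 888 without the filter, 37 with the neighbour offset, and 0 to 893 when a line was left out (893 without NOCT line 12, 0 without GST line 9, 1 without NOCT line 11, 5 without GST line 2, 6 without GST line 8). The median log2 fold change of the tested members, 0.24, was 0.383 with spike-in totals, which moved the median of all genes to 0.152. It was 0.315 on log2(TPM + 0.1) and 0.143 to 0.275 when a line was left out. The 10 genes with an unadjusted p under 0.05 kept their sign in each alternative that tested them, which was all 17 for 9 of them and 16 for ITGB3, not tested under the filter of 1 CPM in 3 libraries. Of 508 single values, 31 changed sign, in 9 genes. With spike-in totals ITGA1 was at 0.034, ITGA11 at 0.139, ITGA4 at 0.025 and LAMB2 at 0.02. ITGA4 was at 0.206 with sample weights, 0.028 on log2(TPM + 1) and 0.043 on log2(TPM + 0.1). ITGA8 was at -0.448 with voom, -0.518 with sample weights, -0.176 on log2(TPM + 1) and -0.269 on log2(TPM + 0.1). ITGA11 was at 0.008 on log2(TPM + 1), and LAMC1 at -0.011 with the neighbour offset. LAMC3 was at -0.001 with DESeq2, -0.061 with sample weights, -0.002 with median-ratio factors, -0.001 with upper-quartile factors and -0.002 without the filter. Leaving out a line gave -0.422 to 0.018 for ITGA10, -0.506 to 0.341 for ITGA11, -0.391 to 0.366 for ITGA4, -0.866 to 0.514 for ITGA8, -0.085 to 0.581 for LAMA5, -0.015 to 0.139 for LAMC1 and -0.057 to 0.07 for LAMC3. The cause was not tested. Of the 38 genes, 26 had a mean of at least 1 TPM, 27 of at least 0.5 TPM and 32 of at least 0.1 TPM. No paired analysis was possible because the line numbers differ between the groups. Low counts limit ITGB3, ITGA10, ITGA11, ITGB4 and the untested genes, and LAMB3 in the GST lines (11 to 34 counts).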
